A study of Homo sapiens with 10 samples.

Results

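The genes described here belong to the bone morphogenetic protein (BMP) pathway and were read in HuCCT1, a human cell line established from a cancer of the intrahepatic bile ducts (cholangiocarcinoma). They are the ID genes ID1, ID2, ID3 and ID4, the ligand genes BMP2, BMP4 and BMP7, and the inhibitor genes SMAD6, BAMBI and GREM1. Every probe set annotated with exactly 1 gene symbol among these 10 was taken, which gave 23 of the 54613 probe sets tested, and all 10 genes had at least 1. RNA was measured on 10 Affymetrix arrays, 5 of cells transfected with an empty vector and 5 of cells transfected with a construct labelled YAPS94A. At the end of the Hippo pathway, YAP1 is a co-activator of transcription, and S94A is a substitution known to weaken its binding to TEAD factors. The design text of the series instead names S127A, a constitutively active form, and the arrays do not show which of the 2 the cells carried, so the construct is called by its sample label. The comparison asks how this construct changed expression in HuCCT1. The labels name no other agent, no time and no clone, and both groups were grown in the same medium.

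BMP ligands are secreted dimers that bind type I and type II serine/threonine kinase receptors. The receptors phosphorylate SMAD1, SMAD5 and SMAD9, which enter the nucleus with SMAD4 and switch on a set of direct targets in which ID1, ID2 and ID3 are among the best known. ID proteins have a helix-loop-helix domain but no DNA-binding region, and they hold E proteins such as TCF3 in complexes that cannot bind DNA. SMAD6 and BAMBI are inhibitors that the pathway itself induces, acting inside the cell and at the receptor, while GREM1 (gremlin) is a secreted protein that traps BMP2, BMP4 and BMP7. In the liver, BMP6 controls hepcidin (HAMP), and BMP signals help to specify the liver in the embryo.

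Upstream sequences were available for 8 of the 10 genes, in a RefSeq table of the build GRCh38.p14. They are shown for ID1 and ID3, the ID genes whose transcripts fell, for SMAD6, whose probe sets disagreed, and for BAMBI, whose window held the most matches to the motifs searched. Each line gives the 250 bases before the annotated start, 5′ to 3′ on the strand of the gene, with matches to GGCGCC (a GC-rich element of BMP-responsive SMADs), GTCTG (a SMAD binding sequence, CAGAC on the other strand) and GGAATG (the TEAD core, CATTCC on the other strand) in capitals. The windows are chr20:31605039-31605288 (plus strand), chr1:23559502-23559751 (minus strand), chr15:66701986-66702235 (plus strand) and chr10:28677271-28677520 (plus strand).
ID1: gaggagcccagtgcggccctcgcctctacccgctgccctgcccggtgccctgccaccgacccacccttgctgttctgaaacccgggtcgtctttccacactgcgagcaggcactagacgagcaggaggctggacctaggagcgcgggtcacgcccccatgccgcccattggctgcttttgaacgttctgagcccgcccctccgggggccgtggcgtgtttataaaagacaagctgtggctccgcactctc
ID3: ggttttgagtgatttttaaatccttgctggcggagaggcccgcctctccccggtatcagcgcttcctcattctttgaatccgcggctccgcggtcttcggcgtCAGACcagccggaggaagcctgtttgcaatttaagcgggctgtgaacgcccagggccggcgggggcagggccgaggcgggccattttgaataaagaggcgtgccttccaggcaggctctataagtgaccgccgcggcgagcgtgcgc
SMAD6: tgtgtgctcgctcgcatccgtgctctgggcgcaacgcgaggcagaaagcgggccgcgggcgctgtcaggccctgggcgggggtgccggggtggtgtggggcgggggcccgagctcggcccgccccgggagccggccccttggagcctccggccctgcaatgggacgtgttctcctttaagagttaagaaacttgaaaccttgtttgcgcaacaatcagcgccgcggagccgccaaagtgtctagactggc
BAMBI: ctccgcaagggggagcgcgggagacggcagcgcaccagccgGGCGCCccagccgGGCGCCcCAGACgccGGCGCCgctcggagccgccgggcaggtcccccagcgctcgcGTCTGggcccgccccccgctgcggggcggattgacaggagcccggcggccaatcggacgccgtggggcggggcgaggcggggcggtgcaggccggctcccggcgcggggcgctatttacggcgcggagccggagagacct
The ID1 and SMAD6 windows held no match to these 3 motifs, and the ID3 window held a single CAGAC. Other forms of the SMAD binding sequence were not searched, and the SMAD6 window holds the palindrome GTCTAGAC near its end. BAMBI had 3 matches to GGCGCC and 2 to GTCTG or CAGAC. Both strands were searched, GGCGCC reads the same on both, and no 2 matches of these 3 motifs overlapped in the printed windows. GGCGCC was present in 3 of the 8 genes with a window (BAMBI, BMP4 and GREM1) and in 16.4% of the 35116 windows of the table. GTCTG or CAGAC was present in 5 of the 8 (ID3, ID4, BMP4, BAMBI and GREM1) and in 38.0% of all windows, and GGAATG or CATTCC in 1 of the 8 (ID4) and in 11.9%. The E box CANNTG, the site of E proteins, was present in 3 of the 8 (ID2, ID4 and BMP4) and in 61.8% of all windows. BMP4 and GREM1 have more than 1 annotated start, which gives them more windows to match. A match is a description of letters, and these windows hold only the sequence nearest the start.

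YAP1 itself was higher on the arrays labelled YAPS94A. Mean log2 signals of its brightest probe set were 12.32 ± 0.22 on the empty vector arrays and 12.85 ± 0.18 on the others (SD, n = 5), a difference of 0.52 ± 0.11 (SE, limma adjusted p = 0.00384), and the groups did not overlap on any of its 3 probe sets. The 30 nearest genes above the median level had a median difference of 0.26. Relative to them the brightest YAP1 probe set differed by 0.26 ± 0.11 (adjusted p = 0.0900), and the others by 0.30 ± 0.10 and 0.34 ± 0.065. All values are log2 signals as deposited, between 2.86 and 14.39 on these arrays, with array medians of 6.25 to 6.28. The 4 markers of biliary epithelium, KRT19, KRT7, EPCAM and SOX9, read 12.68 to 14.18. By limma 2 of the 4 rose, KRT19 by 0.23 ± 0.037 (adjusted p = 0.000563) and KRT7 by 0.17 ± 0.045 (adjusted p = 0.0113). Of the markers of other cell types, 1 of 5 for fibroblasts rose (LUM), 0 of 4 for endothelium passed limma's test (also 0 at an unadjusted p under 0.05) and 1 of 3 measured for leukocytes fell (LYZ). The mean over the fibroblast list was 6.64 to 6.79 on the empty vector arrays and 7.13 to 7.28 on the YAPS94A arrays, and over the leukocyte list 5.46 to 5.65 and 4.89 to 5.14. An array gives no true zero, and the part of these shifts in the results below was not tested. The labels do not state whether replicate arrays stem from independent cultures, and the p-values therefore cover only array-to-array spread, part of which may be technical. Arrays numbered 1 and 2 of the empty vector stood somewhat apart from those numbered 3 to 5 (r = 0.9959 to 0.9976 across these sets, against 0.9981 to 0.9991 within them). For YAPS94A the ranges overlapped, at 0.9957 to 0.9986 across these sets and 0.9980 to 0.9989 within them. Values without the arrays numbered 1 and 2 of both vectors are given where a result rests on them. In cells measured in bulk, fewer expressing cells and less RNA per cell cannot be told apart.

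Of the 23 probe sets, 4 were higher with the construct, 4 were lower and 15 did not pass the test (limma, adjusted over all probe sets). The 8 called make 34.8%, where 28.6% of all probe sets tested were called, 13.9% higher and 14.7% lower, so the share of calls was close to the background. By gene, each read by its brightest probe set, 1 was higher (BMP2), 3 were lower (ID1, ID3 and GREM1) and 6 did not pass, or 40.0% called against 34.4% of 19775 genes. The median difference over the 23 was 0.018, and over all probe sets -0.0084. In 6 of the 23 the vectors were separated without overlap, against 23.0% of all probe sets.

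**Figure D1:**
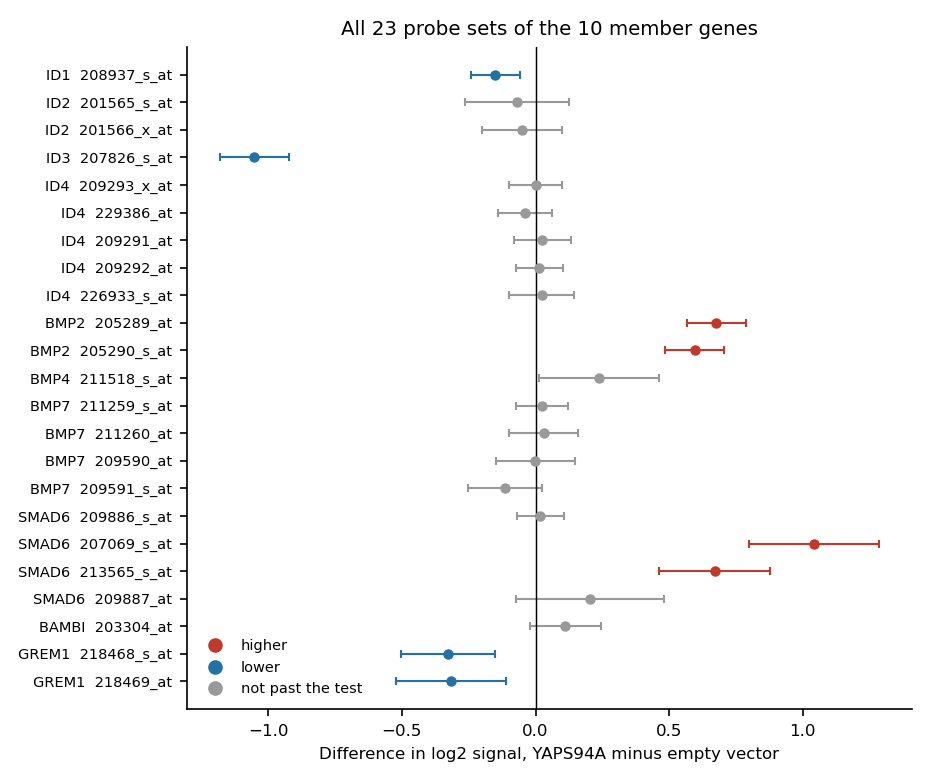
Difference in log2 signal, YAPS94A minus empty vector (horizontal axis), for each of the 23 probe sets of the 10 genes, with 95% confidence intervals from limma. Points are red where higher, blue where lower and grey where the test was not passed. ID3 stands alone on the lower side at -1.05, and the probe sets of BMP2 and some of SMAD6 lie on the higher side.

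ID3 showed the largest difference among the 10 genes and was lower with the construct by 2.07-fold. The 5 empty vector arrays read 10.72, 10.85, 10.74, 10.91 and 10.96, and the YAPS94A arrays read 9.67, 9.71, 9.88, 9.82 and 9.83, in the order of their numbers. Every YAPS94A array lay far below every empty vector array. The difference was -1.05 ± 0.059 (SE, adjusted p = 9.69e-08), with a 95% confidence interval from -1.18 to -0.92, and 2.20% of all probe sets were called with a difference of at least 1 in either direction. The 30 nearest genes of ID3 had a median of 0.07, on the opposite side. ID3 is read by a single probe set, and its identifier ends in _s_at, which marks probes shared by several transcripts.

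ID1, the ID gene most often used as a readout of BMP receptor activity, was lower by 1.11-fold. The empty vector arrays read 10.42, 10.28, 10.28, 10.27 and 10.33, and the YAPS94A arrays 10.09, 10.15, 10.21, 10.22 and 10.16. The groups did not overlap, but the lowest empty vector array, at 10.27, lay close to the highest YAPS94A array, at 10.22. The difference was -0.15 ± 0.042 (adjusted p = 0.0193). Without the arrays numbered 1 and 2 it was -0.10 ± 0.045 and the call was lost (adjusted p = 0.155).

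ID2 and ID4 did not pass the test on any probe set. ID2, which like ID1 and ID3 binds E proteins, read 9.46, 9.57, 9.87, 9.87 and 9.75 with empty vector and 9.54, 9.47, 9.71, 9.74 and 9.72 with the construct on its brighter probe set. The groups overlapped, and in both vectors the arrays numbered 1 and 2 were the lowest. The difference was -0.07, with an interval from -0.26 to 0.12 (adjusted p = 0.641), and the other ID2 probe set differed by -0.05, with an interval from -0.20 to 0.10. The 5 probe sets of ID4 differed by -0.04 to 0.026. The brightest ID4 probe set read 6.45 in both groups, with an interval of the difference from -0.098 to 0.099, and 3 of the 5 lay below 4.74, the lower quartile of probe set means, where background may hide a difference. The differences of ID1, ID2 and ID3 were not tested against each other.

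**Figure D2:**
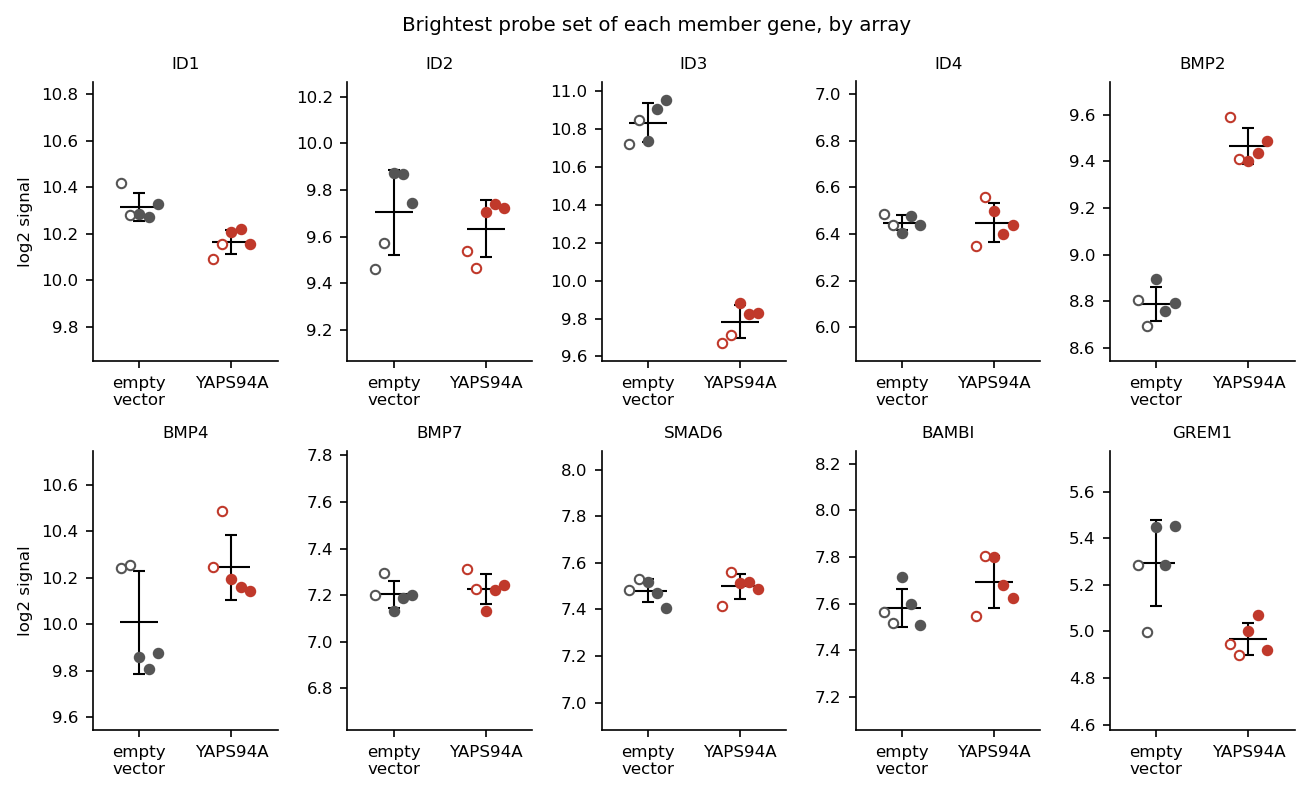
Log2 signal (vertical axis) of the brightest probe set of each of the 10 genes on the 5 empty vector arrays (grey) and the 5 YAPS94A arrays (red). Open circles are the arrays numbered 1 and 2, filled circles those numbered 3 to 5, bars are mean ± SD, and each panel has its own axis range. The groups are separated for ID1, ID3 and BMP2 and overlap for the others, and for BMP4 the open grey circles sit with the red ones.

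Among the ligands, BMP2 rose. On its brighter probe set the empty vector arrays read 8.81, 8.69, 8.90, 8.76 and 8.79 and the YAPS94A arrays 9.59, 9.41, 9.40, 9.44 and 9.49. Every YAPS94A array was above every empty vector array. The rise was 0.68 ± 0.050 (SE, 1.60-fold, adjusted p = 1.02e-06). The other probe set of BMP2 rose by 0.60 ± 0.051 (adjusted p = 3.18e-06), also without overlap. Both exceed 0.5, which 8.57% of all probe sets reached with a call.

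BMP4, a ligand closely related to BMP2, did not pass the test. The empty vector arrays read 10.24, 10.25, 9.86, 9.81 and 9.88 and the YAPS94A arrays 10.25, 10.49, 10.19, 10.16 and 10.14. The empty vector arrays numbered 1 and 2 lay among the YAPS94A arrays, and the other 3 lay below all of them. The difference was 0.24 ± 0.10 (adjusted p = 0.115). Without empty vector array 1 it was 0.295 ± 0.10 (adjusted p = 0.0490), without empty vector array 2 it was 0.299 ± 0.098 (adjusted p = 0.0466), and without the arrays numbered 1 and 2 of both vectors it was 0.32 ± 0.045 (adjusted p = 0.00141). Relative to its 30 nearest genes, whose median was -0.07, BMP4 differed by 0.31 (adjusted p = 0.0310). The arrays of both vectors carry the numbers 1 to 5, and blocked on that number in limma the same difference passed (0.24 ± 0.056, adjusted p = 0.0111).

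BMP7, a ligand of another branch of the family, did not pass on any of its 4 probe sets, which differed by -0.11 to 0.030. The brightest was at 7.20 ± 0.059 with empty vector and at 7.23 ± 0.064 with YAPS94A (mean ± SD, n = 5), with an interval of the difference from -0.075 to 0.12. The dimmest 2 of its probe sets lay below the lower quartile of probe set means.

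The probe sets of SMAD6, an inhibitory SMAD that binds activated receptors and SMAD1, did not move alike. The brightest, 209886_s_at, read 7.48 ± 0.049 and 7.50 ± 0.054 and differed by 0.018 (adjusted p = 0.806), with an interval from -0.071 to 0.11. The next, 207069_s_at, read 6.63, 6.54, 6.65, 6.34 and 6.24 with empty vector and 7.67, 7.82, 7.41, 7.44 and 7.27 with the construct. Its groups were well apart, and it rose by 1.04 ± 0.11 (2.06-fold, adjusted p = 2.09e-05). The third, 213565_s_at, read 5.76, 6.32, 6.08, 6.02 and 5.87 against 6.77, 6.72, 6.64, 6.76 and 6.51, again with no overlap, and rose by 0.67 ± 0.095 (adjusted p = 0.000195). The dimmest, 209887_at, differed by 0.20 ± 0.13 (adjusted p = 0.284), and its YAPS94A arrays numbered 4 and 5 were the highest of the 10. In the mean of the 4 probe sets SMAD6 differed by 0.48 ± 0.050 and passed (adjusted p = 8.23e-06), so the call for the gene depends on how it is represented. Which transcripts each probe set reads was not analysed here.

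**Figure D3:**
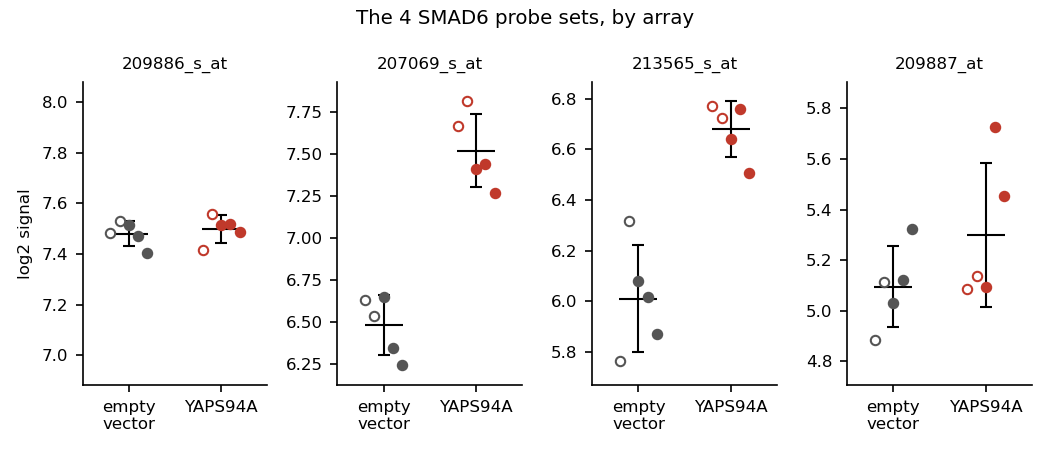
Log2 signal (vertical axis) of the 4 SMAD6 probe sets, brightest at left, on the empty vector (grey) and YAPS94A (red) arrays. Open circles are the arrays numbered 1 and 2 and bars are mean ± SD. The brightest probe set overlaps fully, whereas 207069_s_at and 213565_s_at are separated by vector.

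BAMBI, a pseudoreceptor without a kinase domain, read 7.56, 7.52, 7.71, 7.60 and 7.51 with empty vector and 7.55, 7.81, 7.80, 7.68 and 7.63 with the construct. The groups overlapped, and YAPS94A array 1 lay within the empty vector range. The difference was 0.11 ± 0.061 (adjusted p = 0.214). Its 30 nearest genes had a median of 0.29, and relative to them BAMBI was at -0.18 (adjusted p = 0.0370), so its sign depends on that reference.

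GREM1 was lower on both of its probe sets, at levels close to background. The brighter read 5.29, 5.0, 5.45, 5.29 and 5.45 with empty vector and 4.95, 4.90, 5.0, 5.07 and 4.92 with the construct, and overlapped through empty vector array 2. It fell by 0.33 ± 0.080 (adjusted p = 0.00872). The dimmer probe set, below the lower quartile of probe set means, fell by 0.32 ± 0.094 (adjusted p = 0.0249). It lost its call in 6 alternatives, without empty vector array 3 or 5, without YAPS94A array 1, 3 or 5, and relative to its neighbours, with adjusted p-values up to 0.0606 there. Signal this low leaves the size of a change uncertain. GREM1 is best known as a product of fibroblasts. On the fibroblast marker list LUM rose by 2.67 ± 0.088, and the other 4 did not pass, with differences of -0.12 to 0.0026. A link to GREM1 was not tested.

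The other genes of the pathway were read by their brightest probe set, for 58 of 62 listed. Of these, 9 were higher, 13 were lower and 36 did not pass, or 37.9% called against 34.4% of all genes (17.8% higher and 16.6% lower), with a median difference of 0.0016. The share of calls was again close to the background, and the median over all genes was -0.0038. The differences ran from -1.94 to 0.41 among receptors and co-receptors and from -1.48 to 1.11 among extracellular antagonists.

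**Figure D4:**
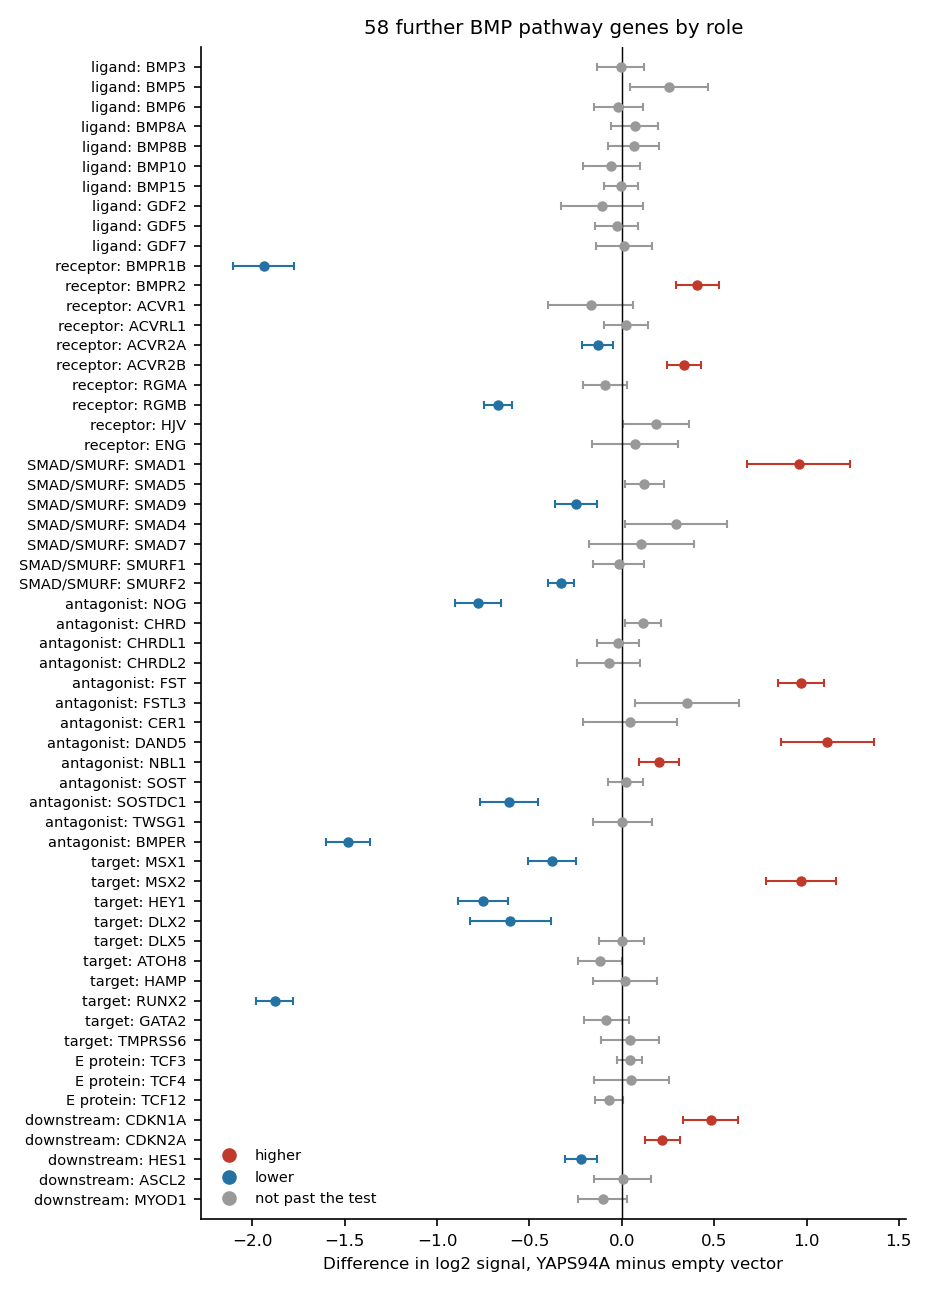
Difference in log2 signal, YAPS94A minus empty vector (horizontal axis), of the brightest probe set of 58 pathway genes, grouped by role from ligands at the top to genes downstream of E proteins at the bottom, with 95% confidence intervals from limma. Red is higher, blue is lower and grey is not past the test. BMPR1B, RUNX2 and BMPER lie farthest to the lower side and DAND5 farthest to the higher side. None of the 10 other ligands, most of them dim, passed.

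None of the 10 other ligand genes measured passed limma's test, where 34.4% of all genes did, and their differences ran from -0.11 to 0.26. Most were dim, which limits what this count shows. BMP8B read 9.99 with empty vector, and the others read 3.93 to 5.93, where the median of gene means was 7.63. Of the 10, 4 had means below the lower quartile of probe set means, where background may hide a difference. At an unadjusted p under 0.05 only BMP5 would pass (0.26 ± 0.097, adjusted p = 0.0714), on a probe set whose mean lay below the lower quartile.

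Among receptors and co-receptors 3 of 10 were lower and 2 higher, with a median of -0.035. These 5 of 10 called stand against 34.4% of all genes (17.8% higher and 16.6% lower), and the list is small. BMPR1B, a type I receptor for BMP ligands, read 8.43, 8.65, 8.64, 8.74 and 8.75 with empty vector and 6.57, 6.57, 6.81, 6.84 and 6.72 with the construct. The groups lay far apart, and the level fell by 1.94 ± 0.075 (3.84-fold, adjusted p = 4.54e-09), with all 3 BMPR1B probe sets lower. RGMB, a membrane-anchored BMP co-receptor, was lower on all 4 of its probe sets, where the brightest fell by 0.67 ± 0.035 and the dimmest fell by 2.19 ± 0.12. BMPR2, the type II receptor of the pathway, rose by 0.41 ± 0.053 (adjusted p = 9.62e-05), and 2 of its 6 probe sets were higher while 4 did not pass. Of the activin type II receptors that also bind BMPs, ACVR2B rose by 0.34 ± 0.042 and ACVR2A fell by 0.13 ± 0.037 (adjusted p = 0.0204). On this brightest ACVR2A probe set the call was lost without empty vector array 4 (adjusted p = 0.0533) or 5 (adjusted p = 0.050). The other ACVR2A probe set fell by 0.29 ± 0.055 (adjusted p = 0.00175), without overlap.

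Among the SMADs and their ubiquitin ligases 1 of 7 was higher and 2 lower, or 42.9% called against 34.4% of all genes. SMAD1, a receptor-activated SMAD of the BMP branch, read 9.25, 9.03, 9.61, 9.55 and 9.54 with empty vector and 10.34, 10.00, 10.44, 10.41 and 10.57 with the construct. In both vectors array 2 was the lowest, and the groups did not overlap. SMAD1 rose by 0.96 ± 0.13 (1.94-fold, adjusted p = 0.000121), and its next probe set by 0.93 ± 0.076. The dimmest, at 4.53 with empty vector and below the lower quartile of probe set means, differed by -0.0040. SMURF2, which marks SMADs and receptors for degradation, was lower on all 4 probe sets, by 0.33 ± 0.032 on the brightest. SMAD9 fell by 0.25 ± 0.052 at a level of 4.89 with empty vector, near background, and lost its call without the arrays numbered 1 and 2 (adjusted p = 0.0642). The other SMAD9 probe set, dimmer still, differed by -0.088 with overlapping groups and did not pass limma's test (adjusted p = 0.251). SMAD5, SMAD4 and SMAD7, the last an inhibitory SMAD like SMAD6, differed by 0.12, 0.29 and 0.11 and did not pass (adjusted p = 0.0751, 0.112 and 0.625). In the fit blocked on array number SMAD5 and SMAD4 passed limma's test as higher (adjusted p = 0.0303 and 0.0247), and SMAD7 did not (adjusted p = 0.288).

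Of 13 extracellular antagonists measured, 3 were higher and 3 lower, around a median of 0.020. The share called was 46.2%, against 34.4% of all genes. NOG (noggin), which binds BMP2 and BMP4 directly, was at 11.32 ± 0.036 with empty vector and at 10.55 ± 0.12 with YAPS94A (mean ± SD, n = 5) and fell by 0.78 ± 0.056 (1.71-fold, adjusted p = 8.30e-07). BMPER, a secreted modulator of BMP activity, read 8.14 ± 0.11 and 6.66 ± 0.056 and fell by 1.48 ± 0.055 (2.79-fold). SOSTDC1, related to sclerostin, fell by 0.61 ± 0.071 from a level of 5.64. FST (follistatin), which binds activins and some BMPs, read 11.73 ± 0.11 and 12.70 ± 0.076 and rose by 0.97 ± 0.057 (1.96-fold), with 1.46 ± 0.049 and 1.23 ± 0.081 on its other probe sets. DAND5, of the same family as gremlin, rose by 1.11 ± 0.11 from 5.96, and NBL1, also of that family, by 0.20 ± 0.049. NOG, BMPER, SOSTDC1, DAND5 and NBL1 are each read by 1 probe set.

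**Figure D5:**
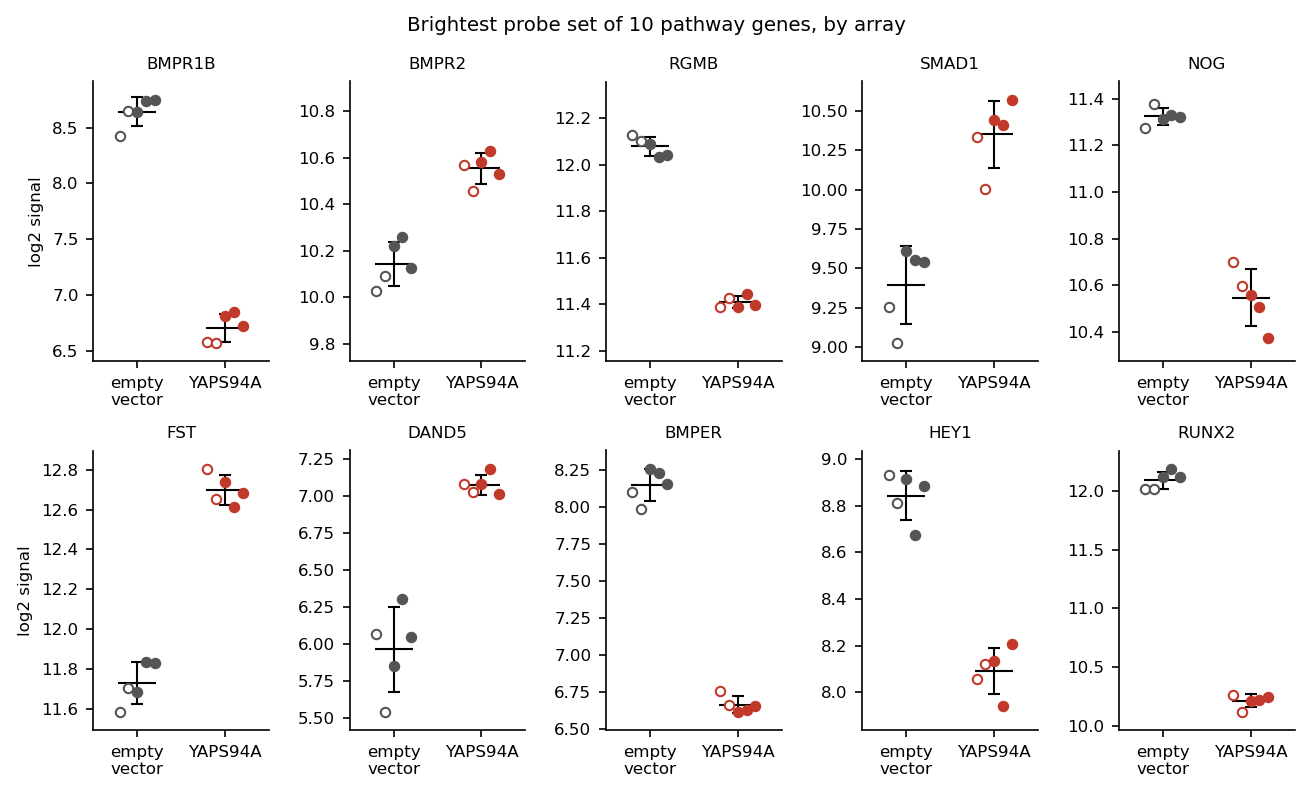
Log2 signal (vertical axis) of the brightest probe set of 10 pathway genes on the 5 empty vector arrays (grey) and the 5 YAPS94A arrays (red). Open circles are the arrays numbered 1 and 2, bars are mean ± SD and each panel has its own axis range. In every panel the groups are separated, lower with the construct for BMPR1B, RGMB, NOG, BMPER, HEY1 and RUNX2 and higher for BMPR2, SMAD1, FST and DAND5.

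Of 10 genes that BMP signals are known to induce in other tissues, 1 was higher, 4 were lower and 5 did not pass, with a median of -0.10. The 5 of 10 called stand against 34.4% of all genes (17.8% higher and 16.6% lower). RUNX2, a transcription factor of bone formation, read 12.02, 12.02, 12.12, 12.19 and 12.12 with empty vector and 10.27, 10.12, 10.21, 10.22 and 10.25 with the construct. It fell by 1.88 ± 0.046 (3.68-fold, adjusted p = 9.02e-11). Of the 5 other RUNX2 probe sets, all with means below 5.8, 2 were lower and 3 did not pass, and 1 of the 2 lost its call in the blocked fit (adjusted p = 0.0717). HEY1, a transcriptional repressor also driven by Notch, fell by 0.75 ± 0.062, and both of its probe sets were lower. The homeobox genes MSX1 and DLX2 fell by 0.38 ± 0.059 and 0.60 ± 0.10, and the other DLX2 probe set differed by 0.014. MSX2, another homeobox gene, rose by 0.97 ± 0.087 on a probe set ending in _x_at, which is open to cross-hybridisation, and by 0.28 ± 0.080 on the next. Its 30 nearest genes had a median of 0.23, and its only probe set without _x_at or _s_at, at 4.0 with empty vector, differed by 0.090. HAMP, the hepcidin gene, differed by 0.016, with an interval from -0.16 to 0.19. It read 5.44 with empty vector, where the median of gene means was 7.63, so background may hide a difference.

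None of the 3 E proteins that ID proteins bind passed limma's test, also at an unadjusted p under 0.05, with TCF3, TCF4 and TCF12 at 0.042, 0.051 and -0.068 (adjusted p = 0.393, 0.757 and 0.190). TCF3 read 14.05 with empty vector, close to the highest signal on the arrays. Among genes that E proteins or ID proteins are known to control, 2 of 5 measured were higher and 1 lower. This is 60.0% called, against 34.4% of all genes. CDKN1A, the cell cycle inhibitor p21, rose by 0.48 ± 0.068 (adjusted p = 0.000207). CDKN2A rose by 0.22 ± 0.043 on a probe set ending in _x_at, among neighbours with a median of -0.30. Its next probe set rose by 0.23 ± 0.077 with overlapping groups (limma adjusted p = 0.0416). The dimmest, at 4.91 with empty vector, differed by -0.046 and did not pass (adjusted p = 0.562). HES1, a repressor of the basic helix-loop-helix class, fell by 0.22 ± 0.040 on its brightest probe set and by 0.51 ± 0.054 on the next, while its probe set without _x_at or _s_at, at 4.28, differed by -0.024.

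The genes whose brightest probe set was most like ID3 over the 10 arrays, by Pearson correlation among 9887 genes above the median level, were KYNU (0.9969), GXYLT1 (0.9967), BMPR1B (0.9966), HOMER1 (0.9962) and LINC00621 (0.9958). All 5 were lower with the construct, by 1.01, 0.62, 1.94, 1.21 and 1.08 on the log2 scale. These correlations are a description in which the difference between the vectors carries most of the likeness. BMPR1B was the only one of the 5 among the pathway genes listed.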

How the data were processed

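RNA of HuCCT1 cells was hybridised to Affymetrix arrays after amplification with a NuGEN Ovation kit and biotin labelling of cDNA, per the labels' protocols. The values are the log2 signals deposited by the authors for 54675 probe sets. The summarisation and normalization behind them are not given in the sources used here. No further normalization was applied, and no detection calls were used. The 62 control probe sets were left out. Gene symbols came from the annotation of the platform and were brought up to date with RefSeq; 41097 probe sets had 1 symbol. limma (version 3.58.1, R 4.3.3) was fitted with lmFit and eBayes to the remaining 54613 probe sets without covariates, YAPS94A minus empty vector, as a two-sided test with p-values adjusted over all of them (Benjamini-Hochberg) and a threshold of 0.05. Standard errors (SE) and 95% intervals are from this fit. A gene's main value is its probe set with the highest mean. Precision rests on 5 arrays per vector. On simulated data of the same probe sets the fit recovered 30% of shifts of 0.25, 82% of 0.5 and 100% of 1 and 2, with 7 false calls. That simulation shifted only 50 probe sets per size and drew independent noise. On the real arrays 28.6% of probe sets were called, so these shares do not carry over to them.

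The named genes are the 10 genes, YAP1, every gene of the pathway lists past the test and the 5 genes most like ID3; SMAD4, SMAD5, SMAD7, BMP5, HAMP, the E proteins, LUM and LYZ are named besides. The members and lists were chosen with earlier results of these data known. Alternatives covered normalization, filters, probe set choice, variance models, the array number as a block, single arrays left out and neighbouring genes; leaving out the arrays numbered 1 and 2 was added after seeing the data.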

Additional observations from a re-analysis of the deposited data

Results flagged for a closer look

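Among 92 groups of 5 arrays checked for YAP1, the 23 probe sets and the named pathway genes, 2 held an array far from the other 4, by the gap to the nearest array over the range of the group (above 0.71). Chance gives about 1 such group in 20. On the ID4 probe set 226933_s_at, empty vector array 3 read 3.54 and the other 4 read 3.26 to 3.33, a level at which signal is close to background. For CDKN2A, empty vector array 3 read 10.95 and the others 11.10 to 11.15.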

How the results depend on the processing

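Of 31 results past the test that were followed through every alternative (YAP1, all probe sets of the 10 genes and the pathway genes called), 24 passed under every alternative that gave a value, and of 15 not past it, 12 stayed so. The exceptions are YAP1, ID1, BMP4, SMAD6, BAMBI, the dimmer GREM1 probe set, ACVR2A, SMAD9, MSX2 and HES1. Over the alternatives the adjusted p of ID3 lay between 2.37e-08 and 2.30e-05, of BMP2 between 3.12e-08 and 0.000107, and of ID1 between 0.00203 and 0.155. Relative to neighbouring genes the brightest YAP1 probe set was at 0.26 (adjusted p = 0.0900) and BAMBI reversed to -0.18. The cause was not tested. The 4 probe sets called lower became 2 among probe sets above the median, where the GREM1 probe sets are filtered out. The 1 gene called higher became 2 in the mean of probe sets (with SMAD6), with the array number as a block, relative to neighbouring genes and without the arrays numbered 1 and 2 (each with BMP4). The 3 genes called lower became 1 without probe sets ending in _x_at and _s_at, where ID1 and ID3 have none left.

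Leaving out single arrays gave 1 to 2 genes higher and 3 lower by brightest probe set, 4 to 5 probe sets higher and 3 to 4 lower, 9 to 10 pathway genes higher and 12 to 13 lower, and 0.45 to 0.60 for YAP1. MSX2 and HES1 lost their call without probe sets ending in _x_at and _s_at. Same-numbered arrays of the 2 vectors correlated in their deviations from the group means at 0.063 to 0.54 over all probe sets, above 0.1 in 4 of 5 pairs, and at 0.10 to 0.59 over the brightest probe set of each gene, above 0.1 in 5 of 5. On both, 4 of 10 arrays correlated best with their own number. Whether the numbers pair the arrays is thus not settled, and the values without the block are the main ones. With the array number as a block BMP4 passed (0.24 ± 0.056, adjusted p = 0.0111), and the pathway genes called higher went from 9 to 13, with SMAD4, SMAD5, FSTL3 (adjusted p = 0.00573) and HJV (adjusted p = 0.00975) added. Of the markers COL1A1 passed as lower (adjusted p = 0.0498), and 1 dim RUNX2 probe set lost its call. Dim probe sets, such as the 3 of 5 for ID4 with means below the lower quartile, could hide differences.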
